A study of Mus musculus with 23 samples.

Results

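Sterol and fatty acid synthesis was followed through 35 genes: 7 of the mevalonate steps, 11 of the steps from squalene to cholesterol, 5 regulators of the SREBP system, 4 genes of sterol transport and esterification, and 8 of fatty acid synthesis and desaturation. They were chosen by gene symbol for their place in the pathway, with earlier results of these data known. All 35 were found among the 53090 genes of the deposited tables, and all 35 were among the 18720 genes that passed the filter on low counts. Messenger RNA was sequenced from brain microglia of female C57BL/6 mice in 4 groups, with 7 libraries of young, 3 of young repopulated, 5 of old and 8 of old repopulated mice. In the repopulated groups the resident microglia were first removed with PLX5622, an inhibitor of the receptor CSF1R that microglia need to survive, given at 1200 ppm in AIN-76A chow, and the brain was then refilled by new microglia. Treatment controls ate the same chow free of the drug. Neither ages nor the length of treatment nor the time allowed for refilling is stated in the sources used here. Magnetic selection on CD11b followed by culture is described for the cells, while sorted microglia are named as the source of the RNA.

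Cholesterol is built from acetyl-CoA through the mevalonate pathway to squalene, which is oxidised, cyclised and trimmed to the finished sterol. When sterol in the endoplasmic reticulum is low, the escort protein SCAP carries the SREBP transcription factors to the Golgi, where they are cut free to switch on these enzymes, and when sterol is plentiful the INSIG proteins hold the complex back. In the brain most cholesterol is made locally, and microglia take up large amounts of it when they clear myelin.

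Library totals were 43.93 M to 47.85 M expected counts in young, 44.90 M to 47.77 M in young repopulated, 43.66 M to 50.98 M in old and 45.73 M to 58.19 M in old repopulated. The summed level of 10 microglia markers was 26110 to 31969 CPM (counts scaled to a common library size) in young, 23066 to 26800 in young repopulated, 10369 to 26582 in old and 9814 to 30012 in old repopulated. None of these 10 was at 0 in all libraries of any group. In old repopulated versus young, 4 of the 10 were called lower, where 5.92% of all genes were. All 10 log2 fold changes were below 0, with a median of -0.77. The summed level of 10 monocyte and neutrophil markers was 27.7 to 137 CPM in young, 87.9 to 322 in young repopulated, 183 to 1417 in old and 112 to 1058 in old repopulated, and that of 8 markers of border-associated macrophages was 58.9 to 223, 295 to 411, 185 to 879 and 70.3 to 1235 CPM in the same order. In old repopulated versus young, 7 of the 10 and 5 of the 8 were called higher, where 9.29% of all genes were. The 8 macrophage markers did not move as one. Log2 fold changes there ran from -2.12 to 3.35, with 6 above 0 and 2 below. In young repopulated versus young they ran from -3.71 to 2.47, also with 6 above 0 and 2 below. Oligodendrocyte markers, from a cell type with high sterol synthesis, summed to between 95.7 and 139 CPM over all groups, and of the 10, Opalin was at 0 in all young, young repopulated and old libraries, and Mog was at 0 in all young repopulated and old libraries. Cnp alone had means of 55, 55.6, 52.1 and 48.8 CPM in young, young repopulated, old and old repopulated. The sum thus rests in large part on this 1 gene. Of the 6 oligodendrocyte markers that passed the filter, 1 (Mbp) rose in old repopulated versus young and 0 fell, 4 of the 6 values were below 0, and their median log2 fold change was -0.31. The 10 astrocyte markers, from another cell type that makes sterol, summed to 88.3 to 183 CPM in young and 23 to 111 CPM in old repopulated, with medians of 111 and 54.1. In this comparison 0 of the 10 were called, where 15.2% of all genes were. Their log2 fold changes ran from -1.66 to 1.63, with 3 above 0 and 7 below. The part of these other cells in the results below was not tested. In bulk RNA, fewer cells of a type and less RNA per cell cannot be told apart. The labels number the libraries but give no date or batch, and the order of the groups starts anew at number 12, so numbers 1 to 11 and 12 to 24 were treated as 2 runs. Young (3 and 4 libraries), old (2 and 3) and old repopulated (5 and 3) have libraries in both runs, and the 3 young repopulated libraries are all in the second. Young replicate 3 had the fewest detected genes of the 23 libraries (16399), and without it the count of called genes in old repopulated versus young was 13, of which 12 were also called with it.

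The comparison of old repopulated with young microglia held most of the called genes. Its groups differ in both age and repopulation, so a call in it does not separate age from repopulation. This comparison also set the largest groups side by side, with 8 old repopulated and 7 young libraries. In it 12 of the 35 genes rose and 1 fell: Elovl6, Stard4, Sqle, Idi1, Acaca, Srebf2, Cyp51, Sc5d, Fdps, Npc1, Msmo1 and Insig1 were higher, and Insig2 was lower. Calls rest on edgeR's quasi-likelihood test with p-values adjusted by Benjamini-Hochberg over all 18720 genes and a threshold of 0.05. The 13 called genes are 37.1% of the 35, against 15.2% of all genes tested. Of all genes 9.29% were called higher and 5.92% lower. The median log2 fold change of the 35 genes was 0.28, beside -0.02 for all genes tested, and 30 of the 35 values were above 0.

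Fewer genes passed in the other comparisons. Young repopulated microglia exceeded young microglia in 2 genes, Acaca and Sc5d, where 1.34% of all genes were called and 0.828% were called higher. In old versus young microglia 0 of the 35 were called (2.83% of all genes), with 11 at an unadjusted p under 0.05. In old repopulated versus old microglia 0 were called (0.278% of all genes), with 12 at an unadjusted p under 0.05. For these comparisons DESeq2 called 0 and 2 genes, and limma voom with sample weights 9 and 3. Old repopulated versus young repopulated gave 0 called genes, with 0% of all genes called and 5 of the 35 at an unadjusted p under 0.05. The interaction, which asks whether refilling had a different effect in old than in young mice, also gave 0 genes and 0% of all genes, with 4 at an unadjusted p under 0.05. DESeq2 called 0 in both of these, and voom called 6 and 1. The shares of all genes called by DESeq2 and voom are not given here. Their counts are therefore not to be set against the edgeR shares. Median log2 fold changes of the 35 genes were 0.11 for old versus young, 0.21 for old repopulated versus old, 0.12 for young repopulated versus young, 0.13 for old repopulated versus young repopulated and 0.02 for the interaction. These comparisons share their control libraries, so their values are set side by side only. The labels do not say whether libraries come from separate animals, so p-values measure the spread between these libraries.

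**Figure D1:**
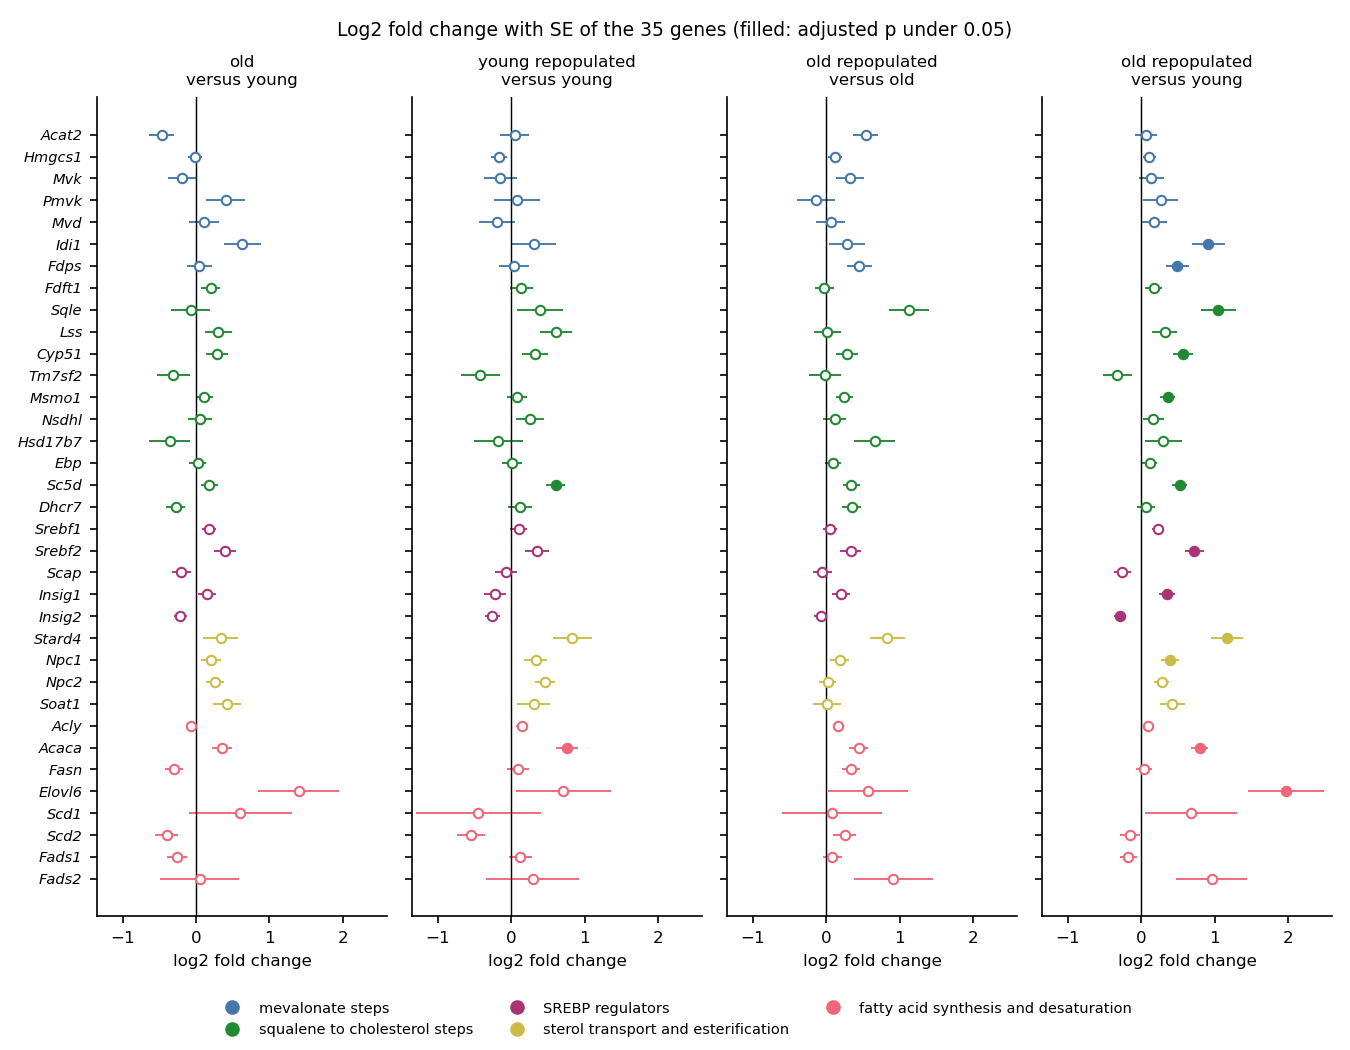
Log2 fold change (x axis) of each of the 35 genes (rows, coloured by role) in 4 comparisons, with whiskers of 1 standard error and filled points for an adjusted p under 0.05. Filled points number 0, 2, 0 and 13 from left to right, and in old repopulated versus young 12 of the 13 lie to the right of 0.

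Levels between genes were compared on the deposited TPM, which is scaled by gene length. In young microglia Npc2, the soluble protein that hands cholesterol over inside lysosomes, had the highest mean at 610 ± 38.1 TPM (SD, n = 7). Acly, which makes cytosolic acetyl-CoA from citrate, followed at 101 ± 5.62 TPM, Npc1, the membrane protein that exports lysosomal cholesterol, at 82.2 ± 12.9 TPM and Soat1, which esterifies cholesterol for storage, at 72.2 ± 13.2 TPM. The means of Npc1 and Soat1 did not differ beyond their spread. Apart from Ebp at 66.2 TPM, every enzyme of the 18 sterol steps had a young mean between 1.26 TPM (Hsd17b7) and 25.1 TPM (Hmgcs1). The fatty acid genes ranged from Acly, next after Npc2, down to Fads2 (0.901 TPM), Elovl6 (0.447 TPM) and Scd1 (0.233 TPM), the lowest 3 of the 35. Of the paired genes, Srebf1 (30.8 ± 3.19 TPM) stood above Srebf2 (11 ± 0.972 TPM), and Insig2 (29.2 ± 3.20 TPM) and Insig1 (22.7 ± 3.51 TPM) were close together. Npc2 also had the highest mean of the 35 in the other groups, at 820 ± 13.7 TPM in young repopulated (n = 3), 760 ± 124 in old (n = 5) and 690 ± 73.4 in old repopulated (n = 8).

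Promoter sequences are shown for 4 members that stand for different outcomes below: Srebf2, which rose, Insig2, which fell, Sc5d, which rose in both repopulated groups, and Hmgcs1, which was not called. Each is a stretch of 150 bases upstream of the gene's RefSeq start on mouse build GRCm38.p6, written 5′ to 3′ on the gene's strand, with capitals for CCAAT (the box bound by NF-Y, a partner of the SREBPs, read on either strand) and for TCACNCCAC, a form of the sterol regulatory element. The Srebf2 stretch runs from 238 to 89 bases before the start, and the others end at the base before it.
Srebf2, chr15:82147031-82147180, plus strand: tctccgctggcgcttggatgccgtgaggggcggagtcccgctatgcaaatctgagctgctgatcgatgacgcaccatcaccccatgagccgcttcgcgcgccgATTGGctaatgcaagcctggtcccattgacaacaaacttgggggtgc
Insig2, chr1:121332590-121332739, minus strand: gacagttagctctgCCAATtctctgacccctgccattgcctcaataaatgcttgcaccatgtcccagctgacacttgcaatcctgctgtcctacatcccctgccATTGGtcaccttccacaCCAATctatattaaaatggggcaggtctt
Sc5d, chr9:42264301-42264450, minus strand: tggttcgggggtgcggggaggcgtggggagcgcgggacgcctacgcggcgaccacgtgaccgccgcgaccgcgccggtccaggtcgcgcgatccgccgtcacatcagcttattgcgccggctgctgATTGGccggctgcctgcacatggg
Hmgcs1, chr13:119690201-119690350, plus strand: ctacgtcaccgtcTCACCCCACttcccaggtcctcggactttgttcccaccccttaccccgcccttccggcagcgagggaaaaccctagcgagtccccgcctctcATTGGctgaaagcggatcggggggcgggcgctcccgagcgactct

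Of the 35 genes, 27 had a promoter entry in the RefSeq table. Within 250 bases upstream, CCAAT was found on either strand in 21 of the 27 (77.8%), against 37.5% of the 27025 genes of the table and 33.8% of its 32851 promoters. All 9 genes with an entry from squalene to cholesterol held it, and 1 of 5 fatty acid genes did, which was Fasn. The share was the same, 77.8%, among the called genes (7 of 9) and the others (14 of 18). GGGCGG, the Sp1 box, was found in 22 of 27 (81.5%) against 35.4% of genes and 32.7% of promoters. TCACNCCAC was found in 1 of the 27, Hmgcs1, against 1.22% of genes and 1.05% of promoters. The Hmgcs1 match lies 137 bases before its start and its CCAAT box 45 bases before, while Insig2 has 3 CCAAT boxes in the printed stretch. The 35 genes all passed the filter on low counts, while the genes of the table were not filtered by expression. The shares thus compare unlike sets, and no enrichment is read from them. These matches are descriptions of letters in a window and not of binding.

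By position, in GENCODE M21 on GRCm38, Sqle lies at chr15:59315077-59331192 on the plus strand, Idi1 at chr13:8885501-8892451 (plus), Fdps at chr3:89093588-89101959 (minus), Cyp51 at chr5:4081145-4104746 (minus), Msmo1 at chr8:64718139-64733792 (minus) and Sc5d at chr9:42251595-42264256 (minus). Acaca lies at chr11:84129672-84401651 (plus), Elovl6 at chr3:129532355-129638495 (plus), Insig1 at chr5:28071363-28078662 (plus) and Insig2 at chr1:121304353-121332589 (minus). All are protein-coding. Idi1 shares exon bases with Gm48574 and Elovl6 with Gm35986 on the opposite strand, as Cyp51 does with Akap9, and so do Fdft1, Lss, Hmgcs1, Scap and Srebf1 with other genes. Without knowledge of how strand was used in counting, the counts of these genes are uncertain.

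Among the 7 mevalonate genes, which carry acetyl-CoA to farnesyl diphosphate, Idi1 and Fdps rose in old repopulated versus young microglia and the other 5 were not called. Idi1 isomerises the first isoprene unit. Its level was 4.46, 6.5 and 7.02 CPM in young libraries (lowest, median and highest, the order used for young and old repopulated throughout), 8.27, 6.67 and 7.22 in the 3 young repopulated, 10.1, 10.5, 9.04, 8.78 and 7.74 in the 5 old, and 5.08, 10.5 and 20.8 in old repopulated. All 5 old libraries lay above all 7 young ones, while the old repopulated libraries spread from within the young range to far above every other group. Its log2 fold change in old repopulated versus young was 0.91 ± 0.23 (SE; 1.88-fold, adjusted p = 0.0101), and in old versus young it was 0.63 ± 0.25 (adjusted p = 0.209).

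Fdps makes farnesyl diphosphate, from which both sterols and isoprenoid groups are built. It was at 9.06, 11.4 and 12.9 CPM in young, 13.6, 7.82 and 12.6 in young repopulated, 9.96, 12.9, 11.1, 11.4 and 11.4 in old, and 10.7, 14.9 and 23.1 in old repopulated. Only the upper old repopulated libraries stood clear of the other 3 groups. Its log2 fold change was 0.49 ± 0.15 (1.41-fold, adjusted p = 0.0328). The call was lost without any 1 of 6 libraries (young replicates 1, 5 and 7, old repopulated replicates 6, 7 and 8), with an adjusted p up to 0.0797, and its exons overlap those of Gm43738 on the same strand, so its count is uncertain. The uncalled Hmgcs1, which condenses acetyl-CoA units, had a log2 fold change of 0.11 ± 0.08, and those of Acat2, Mvk, Mvd and Pmvk were between 0.07 and 0.26. Acat2 was higher in all 8 old repopulated than in all 5 old libraries, at a log2 fold change of 0.54 ± 0.17 (adjusted p = 0.175).

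Of the 11 genes from squalene to cholesterol, Sqle, Cyp51, Msmo1 and Sc5d rose in old repopulated versus young microglia and none fell. Sqle, the squalene epoxidase that begins this stretch, was at 2.59, 4.36 and 5.23 CPM in young, 5.96, 4.53 and 6.18 in young repopulated, 2.45, 4.55, 4.88, 3.48 and 4.70 in old, and 5.27, 7.23 and 17.3 in old repopulated. Every old repopulated library lay above every young and every old library, though the lowest cleared the young range by little. The log2 fold change was 1.05 ± 0.24 against young (2.07-fold, adjusted p = 0.00603) and 1.13 ± 0.27 against old, which at an adjusted p of 0.0771 was not called. Between old and young it was -0.08.

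Cyp51 removes the first methyl group from lanosterol. It was at 14.1, 14.9 and 17 CPM in young, 19.5, 18.1 and 20.2 in young repopulated, 18.4, 19.9, 18.4, 18.6 and 18.4 in old, and 14.8, 21.9 and 32.6 in old repopulated. All young repopulated and all old libraries were above all young ones, and the old repopulated libraries had the widest spread (coefficient of variation 28.8%, against 3.46% in old). Its log2 fold change in old repopulated versus young was 0.57 ± 0.14 (1.48-fold, adjusted p = 0.00777).

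Msmo1 oxidises further methyl groups of the sterol for removal. It was at 15.2, 16.9 and 18.3 CPM in young, 16.5, 17.3 and 19.7 in young repopulated, 19, 19.5, 16.1, 20.0 and 16.2 in old, and 15.2, 22.8 and 25.5 in old repopulated. The groups overlapped. Its log2 fold change was 0.36 ± 0.10 (1.28-fold, adjusted p = 0.0225), and without old repopulated replicate 6 the adjusted p was 0.0519.

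Sc5d, a desaturase near the end of the pathway, rose in both repopulated groups relative to young. Levels were 9.24, 11.8 and 12.8 CPM in young, 16.6, 18.4 and 16.4 in young repopulated, 13.7, 14.2, 11.5, 12.2 and 12.1 in old, and 12.5, 16.2 and 19.6 in old repopulated. All 3 young repopulated libraries were above all young and all old ones, and only the lowest old repopulated library fell within the young range. The log2 fold change was 0.61 ± 0.13 in young repopulated versus young (1.52-fold, adjusted p = 0.0260) and 0.52 ± 0.10 in old repopulated versus young (1.44-fold, adjusted p = 0.00247), with 0.18 in old versus young. Without any 1 of the 3 young repopulated libraries the first call was lost (adjusted p between 0.0761 and 0.157), and within library numbers 12 to 24 it was 0.55 ± 0.10 (adjusted p = 0.00592).

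The other 7 genes of this stretch were not called against young in either repopulated group. In old repopulated versus young their log2 fold changes were 0.17 for Fdft1, which makes squalene, 0.32 for Lss, which closes the ring system, -0.33 for Tm7sf2, 0.16 for Nsdhl, 0.30 for Hsd17b7, 0.11 for Ebp and 0.06 for Dhcr7, which catalyses a late reduction. Lss was higher in all 3 young repopulated than in all 7 young libraries, with a log2 fold change of 0.61 ± 0.22 (adjusted p = 0.169).

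**Figure D2:**
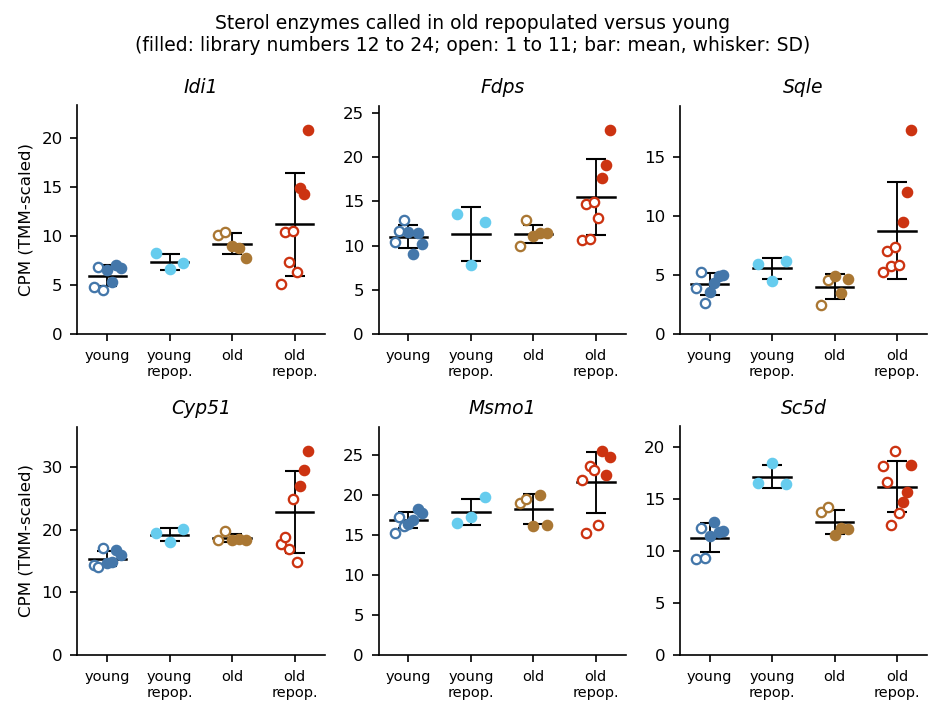
CPM (y axis) of the 6 called sterol enzymes in each library of the 4 groups, with bars for the mean, whiskers for 1 SD and filled points for library numbers 12 to 24. In old repopulated microglia the 3 filled points of Idi1, Fdps, Sqle and Cyp51 lie above all 5 open ones, while those of Sc5d do not.

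Of the SREBP regulators, Srebf2 and Insig1 rose and Insig2 fell in old repopulated versus young microglia, and Srebf1 and Scap were not called. Srebf2 encodes SREBP2, the main activator of the sterol genes. It was at 27.2, 32.7 and 39.1 CPM in young, 38.2, 42.5 and 43.1 in young repopulated, 36.9, 40.8, 54.2, 37.7 and 42.7 in old, and 39.2, 49.3 and 78.2 in old repopulated. The old repopulated and young ranges did not overlap but nearly touched. The young repopulated and old ranges overlapped both, and their means of 41.3 and 42.5 CPM lay between those of young (32.3) and old repopulated (53.4). The log2 fold change was 0.72 ± 0.13 (1.65-fold, adjusted p = 0.00126), beside 0.39 ± 0.14 in old versus young (adjusted p = 0.168) and 0.35 in young repopulated versus young. Srebf1, whose SREBP1 products favour the fatty acid genes, was at 41.7, 42.7 and 52.6 CPM in young, 51.5, 46.7 and 46.2 in young repopulated, 54.1, 50.9, 54.4, 42.5 and 51.9 in old, and 38.1, 52.3 and 62.0 in old repopulated. These ranges overlapped, and the log2 fold change of 0.23 ± 0.08 was not called (adjusted p = 0.0659).

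Scap, the escort, was at 48.8, 57.3 and 65.8 CPM in young, 58.7, 46.6 and 56.6 in young repopulated, 55.6, 47.3, 43.0, 54.5 and 45.9 in old, and 33.4, 47.9 and 64.3 in old repopulated. Its groups overlapped, at a log2 fold change of -0.26 ± 0.11 in old repopulated versus young (adjusted p = 0.127). Insig1, itself a target of the SREBPs and so part of the feedback loop, was at 27.3, 30.2 and 47.3 CPM in young, 26.2, 31.2 and 28.3 in young repopulated, 31.5, 42.9, 42.3, 38.0 and 30.0 in old, and 35.7, 41.5 and 48.9 in old repopulated. All 8 old repopulated libraries were above all 3 young repopulated ones, and 2 of the 7 young libraries, replicates 2 and 3, lay inside the old repopulated range. The log2 fold change was 0.35 ± 0.11 against young (1.28-fold, adjusted p = 0.0348) and 0.58 ± 0.15 against young repopulated (adjusted p = 0.329, not called). The first call was lost without any 1 of 8 libraries (young replicates 1, 4, 5, 6 and 7, old repopulated replicates 4, 6 and 8), with an adjusted p up to 0.0763.

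Insig2, the second anchor, was the one gene of the 35 that fell in old repopulated versus young microglia. The promoter stretch printed above holds 3 CCAAT boxes for it. The level was 26.1, 30.8 and 34.8 CPM in young, 23.4, 25.1 and 28.4 in young repopulated, 26.6, 27.8, 23.1, 27.5 and 27.0 in old, and 20.6, 25.1 and 29.7 in old repopulated. The young range began above the median of each other group except old, and the ranges overlapped. Its log2 fold change was -0.29 ± 0.08 in old repopulated versus young (adjusted p = 0.0145), -0.26 in young repopulated versus young and -0.22 in old versus young. Without young replicate 5 the first value had an adjusted p of 0.0514.

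All 4 genes of sterol transport and esterification had positive log2 fold changes in old repopulated versus young, and Stard4 and Npc1 were called. Stard4 carries cholesterol through the cytosol between membranes. It was at 2.50, 4.52 and 6.97 CPM in young, 8.03, 6.89 and 8.96 in young repopulated, 5.21, 5.22, 6.61, 6.47 and 4.63 in old, and 6.78, 8.87 and 17.3 in old repopulated. All 8 old repopulated libraries exceeded all 5 old libraries, and 1 young library, replicate 3, reached into their range. The log2 fold change was 1.17 ± 0.21 against young (2.25-fold, adjusted p = 0.00146), 0.83 ± 0.24 against old (adjusted p = 0.133) and 0.84 ± 0.27 in young repopulated versus young (adjusted p = 0.129).

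Npc1 was at 203, 265 and 276 CPM in young, 368, 290 and 287 in young repopulated, 222, 320, 381, 233 and 286 in old, and 249, 339 and 401 in old repopulated. All 3 young repopulated libraries were above the young range, and 1 old repopulated library, replicate 1, lay within it. The log2 fold change in old repopulated versus young was 0.39 ± 0.12 (1.31-fold, adjusted p = 0.0323). That call was lost without any 1 of 5 libraries (young replicates 1 and 3, old repopulated replicates 5, 6 and 8), with an adjusted p up to 0.0694. Npc2 and Soat1 had log2 fold changes of 0.28 (adjusted p = 0.0778) and 0.42 (adjusted p = 0.0988). In young repopulated versus young, Npc2 was higher in all 3 libraries at 0.46 ± 0.14 (adjusted p = 0.0973).

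Of the 8 fatty acid genes, Acaca and Elovl6 rose in old repopulated versus young microglia, and the other 6 were not called. Acaca, the acetyl-CoA carboxylase of the committed step, was at 19.8, 30.3 and 34.0 CPM in young, 46.5, 54.7 and 50.0 in young repopulated, 39.3, 43.2, 33.9, 31.1 and 42.6 in old, and 38.3, 51.0 and 70.7 in old repopulated. Both repopulated groups lay wholly above the young range. Its log2 fold change was 0.80 ± 0.12 in old repopulated versus young (1.74-fold, adjusted p = 0.000312), the smallest adjusted p of the 35, and 0.76 ± 0.15 in young repopulated versus young (1.70-fold, adjusted p = 0.0131). It was 0.35 in old versus young and 0.44 in old repopulated versus old, neither called. Leaving out any 1 young repopulated library put the adjusted p of the second value between 0.0532 and 0.101, and within library numbers 12 to 24 it was 0.70 ± 0.10 (adjusted p = 0.00226).

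Elovl6, which lengthens palmitate to stearate, had the largest log2 fold change of the 35 at 1.97 ± 0.52 (3.91-fold, adjusted p = 0.0138), on low counts. It was at 0.0417, 0.770 and 1.3 CPM in young, 1.2, 1.36 and 1.04 in young repopulated, 1.24, 2.68, 2.98, 0.754 and 1.99 in old, and 0.510, 2.98 and 4.66 in old repopulated. Of the old repopulated libraries 2, replicates 1 and 3, fell within the young range and the other 6 were above it. In old versus young the log2 fold change was 1.40 ± 0.56 (adjusted p = 0.209). Acly and Fasn, which supply acetyl-CoA and assemble palmitate, had log2 fold changes of 0.09 ± 0.05 and 0.03 ± 0.11 in old repopulated versus young. The desaturases were not called: 0.68 ± 0.63 for Scd1, -0.15 ± 0.14 for Scd2, -0.18 ± 0.12 for Fads1 and 0.96 ± 0.49 for Fads2. Scd1 and Scd2 are near relatives between which reads can be divided wrongly, so their counts are uncertain.

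**Figure D3:**
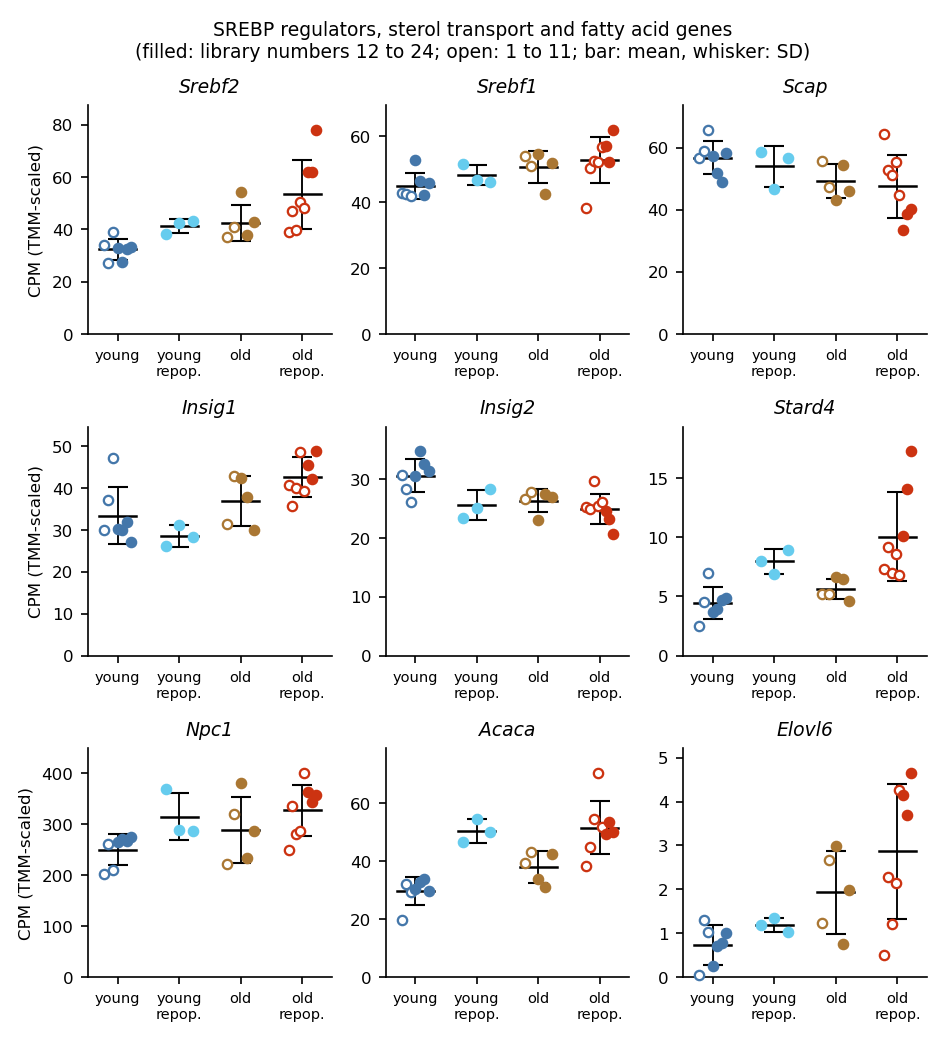
CPM (y axis) of the 5 SREBP regulators and of 4 called genes of sterol transport and fatty acid synthesis in each library, with bars for the mean, whiskers for 1 SD and filled points for library numbers 12 to 24. Srebf2 and Acaca of old repopulated microglia lie above all young libraries, and Insig2 is the gene whose old repopulated mean lies below the young mean and was called.

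Ranges were also compared library by library. In old repopulated versus young, 3 of the 35 (8.57%: Acaca, Sqle, Srebf2) were higher in every library of the first group than in every library of the second, against 0.983% of all genes. In young repopulated versus young these were 6 (17.1%: Acaca, Cyp51, Lss, Npc1, Npc2 and Sc5d) against 5.97% of all genes, in a comparison of 3 with 7 libraries. In old repopulated versus old they were 3 (Acat2, Sqle, Stard4) against 0.304%, in old versus young 2 (Cyp51, Idi1) against 1.43%, and in old repopulated versus young repopulated 1 (Insig1) against 1.21%. The count of genes lower in every library was 0 of the 35 in each of these comparisons, where 1.26%, 6.11%, 0.433%, 0.78% and 1.05% of all genes were, in the order given, and nothing is read from it.

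Libraries of 1 group were also compared between library numbers. In old repopulated microglia, 7 of the 35 genes (20%: Cyp51, Fdft1, Fdps, Idi1, Sqle, Srebf2 and Stard4) had all 3 libraries of numbers 12 to 24 above all 5 of numbers 1 to 11, against 12.8% of all genes. In 4 (11.4%: Dhcr7, Fads1, Insig2 and Scap) they all lay below, against 9.32%. Sqle was at 9.51, 12 and 17.3 CPM in those 3 libraries and at 7.40 or less in the other 5, and Srebf2 at 62.1, 62.1 and 78.2 against 50.6 or less. Scap was at 33.4, 38.5 and 40.1 CPM there and at 44.8 or more in the others. In young microglia 4 of the 35 (11.4%: Dhcr7, Npc1, Scd2 and Soat1) had all libraries of numbers 12 to 24 above all of numbers 1 to 11, against 9.29% of all genes, and 0 had them below, against 5.63%. In old microglia 1 of the 35 (2.86%: Ebp) had them above, against 12.4% of all genes, and 8 (22.9%: Acly, Dhcr7, Fads1, Fasn, Idi1, Lss, Sc5d and Tm7sf2) had them below, also against 12.4%. By this measure Idi1 separated in opposite directions in old and old repopulated microglia, and Dhcr7 in young against the other 2 groups. Each of these ways of separating held 5.63% to 12.8% of all genes, and nothing is read from these 2 genes. Old repopulated replicate 8 had the highest value of its group in 14 of the 35 genes and in 8 of the 18 sterol enzymes.

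Marker levels also differed between the runs among old repopulated libraries. In the 3 libraries of numbers 12 to 24 the microglia markers summed to 9814 to 14526 CPM, against 15170 to 30012 in the other 5. Monocyte and neutrophil markers summed to 550 to 1058 CPM there against 112 to 291, and border-associated macrophage markers to 665 to 1235 against 70.3 to 810. Astrocyte markers summed to 23 to 39.2 CPM there (median 31.3) against 25.7 to 111 (median 81.3). The part of these cells in the sterol gene levels was not tested. Among old libraries, replicate 3 had the highest monocyte and neutrophil sum (1417 CPM) and the lowest microglia sum (10369 CPM). It was the highest old library for Srebf2 (54.2 CPM), Sqle (4.88) and Stard4 (6.61), but not for Fdps (11.1, the highest being 12.9). Over the 35 genes it was the highest of its group in 14 and the lowest in 10.

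**Figure D4:**
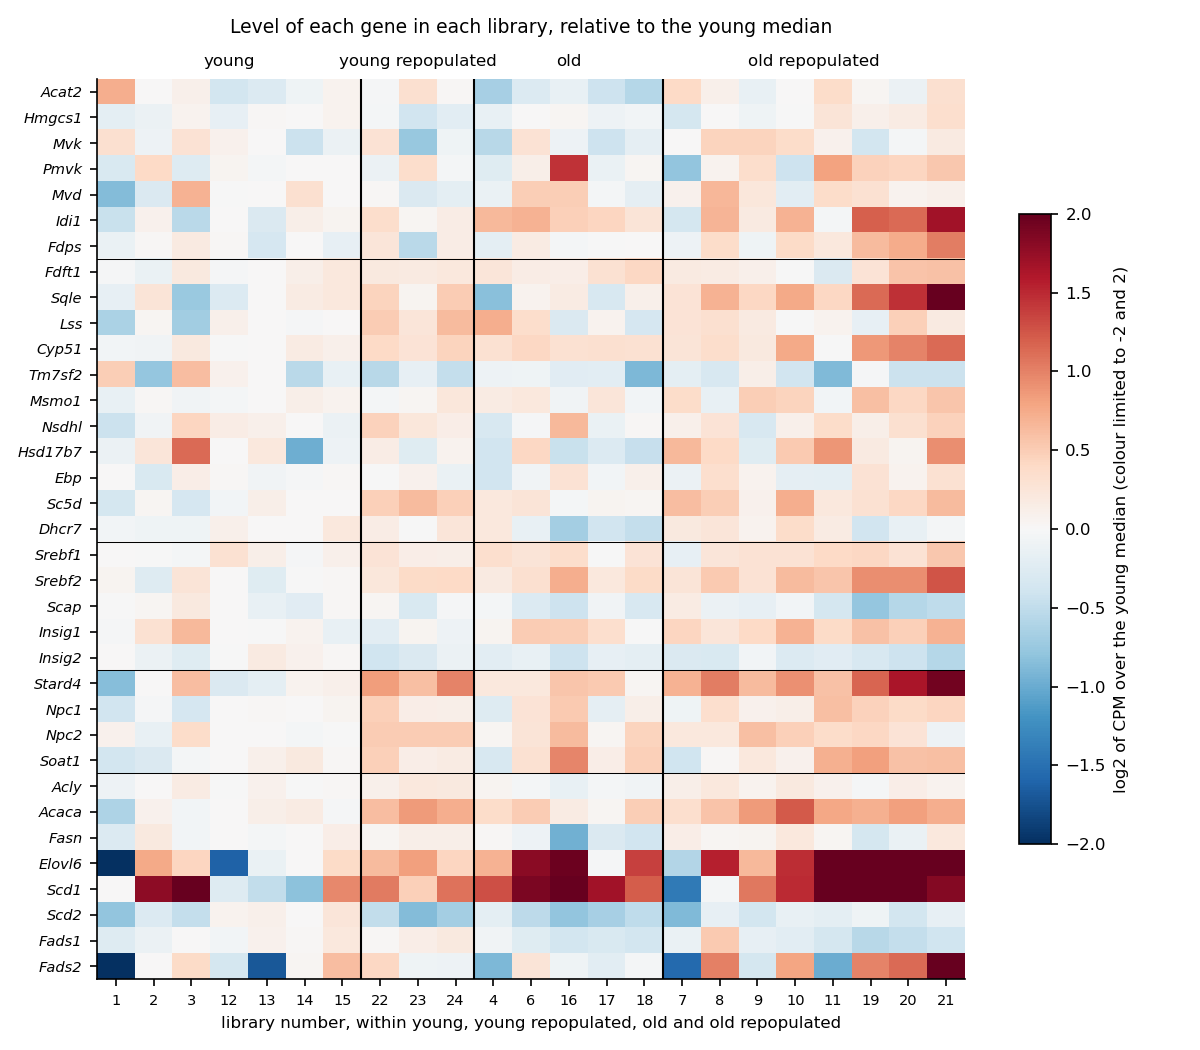
Level of the 35 genes (rows, by role) in the 23 libraries (columns, by group and library number), as log2 of CPM over the median of the young libraries, with colours limited at -2 and 2. Sqle, Idi1, Cyp51, Srebf2 and Stard4 are reddest in the last 3 columns, and the low-count genes Elovl6, Scd1 and Fads2 vary most from library to library.

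The called genes were then compared within each run of library numbers. In old repopulated versus young, 22 of the 35 were called within numbers 12 to 24, 18 higher and 4 lower, where 41.1% of all genes were called, and edgeR called 0 within numbers 1 to 11, where 0.0107% were called and 5 of the 35 were at an unadjusted p under 0.05. Leaving out old repopulated replicate 6, 7 or 8, which are numbers 19, 20 and 21, gave 9, 12 and 11 called genes. The 13 genes called over all libraries had the same sign in both runs, which follows in part from how they were called, with a median log2 fold change of 0.93 in numbers 12 to 24 and 0.47 in numbers 1 to 11. In numbers 1 to 11 their smallest adjusted p was 0.281. Srebf2 was at 1.11 ± 0.12 and 0.43 ± 0.15 in these runs, Sqle at 1.54 ± 0.21 and 0.69 ± 0.33, and Fdps at 0.93 ± 0.17 and 0.14 ± 0.19. Acaca (0.70 and 0.94), Sc5d (0.44 and 0.65) and Npc1 (0.41 and 0.47) were no larger in the second run. A test of the difference between the runs, chosen after the data were seen, called 0 of the 35 (0.061% of all genes, with 11 of the 35 at an unadjusted p under 0.05), and its smallest adjusted p was that of Fdps, 0.0876, for a difference of 0.80.

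The other comparisons also gave more calls within numbers 12 to 24. In old repopulated versus old 10 genes were called there, all higher (12.7% of all genes), led by Sqle at 1.57 ± 0.23 (adjusted p = 0.00368) and Stard4 at 1.23 ± 0.21 (adjusted p = 0.00567). In old versus young 8 were called (15.7% of all genes): Srebf2, Elovl6, Scd1 and Soat1 higher, and Dhcr7, Fads1, Fasn and Scd2 lower. In young repopulated versus young 7 were called (9.3%), with Cyp51, Npc2, Srebf2 and Stard4 higher and Scd2 lower beside Acaca and Sc5d. Old repopulated versus young repopulated gave 16 (36.3%), and the interaction gave 3 (8.87%): Scd2 at 1.2 ± 0.16, Sqle at 1.23 ± 0.32 and Npc2 at -0.73 ± 0.19. Within numbers 1 to 11, old versus young and old repopulated versus old each gave 0 genes, with 0.00533% and 0% of all genes called and 4 and 1 of the 35 at an unadjusted p under 0.05.

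**Figure D5:**
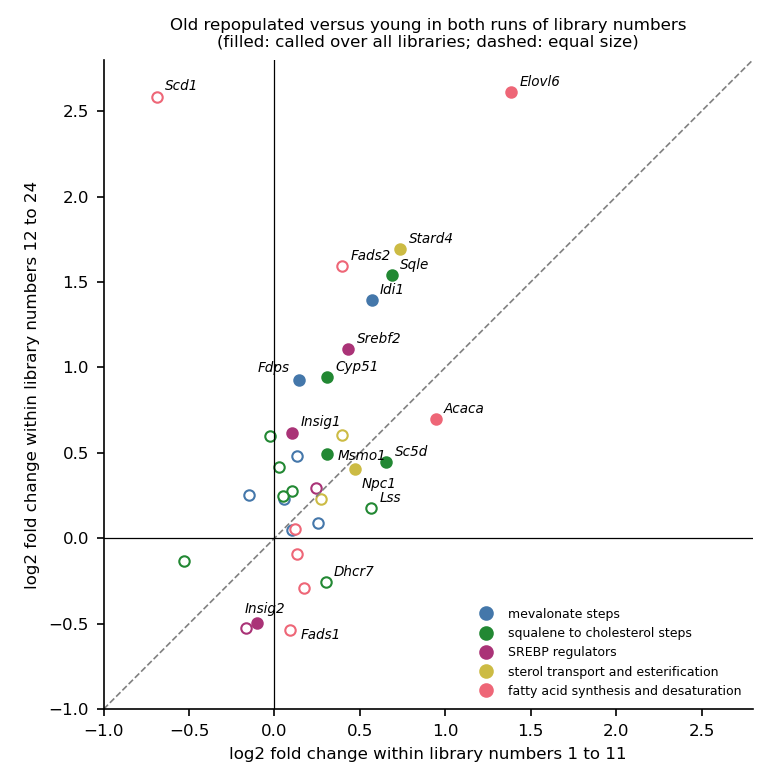
Log2 fold change in old repopulated versus young within library numbers 1 to 11 (x axis) and 12 to 24 (y axis) for the 35 genes, coloured by role and filled where called over all libraries, with a dashed line of equal size. Of the 13 filled points, Acaca, Sc5d, Npc1 and Insig2 lie below the line, and Scd1 stands at opposite signs in the 2 runs.

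Genes next to the pathway were examined as 3 further lists. Of 13 tested genes of the isoprenoid branch and sterol accessory functions, 5 (38.5%) rose and 0 fell in old repopulated versus young, where 15.2% of all genes were called, with a list median of 0.26. Por, the reductase that feeds electrons to Cyp51 and Sqle, had a log2 fold change of 1.08 ± 0.31 (adjusted p = 0.0212), Ch25h, which makes the regulatory oxysterol 25-hydroxycholesterol, 0.69 ± 0.23 (adjusted p = 0.0408), Hsd3b7 0.66 ± 0.15 (adjusted p = 0.00704) and Nus1, of dolichol synthesis, 0.57 ± 0.14 (adjusted p = 0.00765). Of 24 tested genes of fatty acid supply and elongation, 3 (12.5%) were called, against 15.2% of all genes. All 3 rose and 0 fell, where 9.29% of all genes were called higher: Hsd17b12 (0.51), Elovl5 (0.41) and Hacd2 (0.28). The list median was 0.10. Of 14 genes of LXR signalling and SREBP processing, 2 rose and 1 fell (21.4%), with a list median of -0.06. Nr1h3, the sterol-sensing receptor LXR alpha, rose from a young mean of 2.17 to 14.8 CPM (log2 fold change 2.76 ± 0.58, adjusted p = 0.0034) and was also called in old versus young (2.95 ± 0.61, adjusted p = 0.0109). Lpcat3, which places unsaturated fatty acids into phospholipids, fell by 0.73 on the log2 scale and was lower in all old repopulated than in all young libraries. Nr1h3 was the only gene of these 3 lists called in old versus young, and none was called in young repopulated versus young or in old repopulated versus old.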

How the data were processed

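RNA from brain microglia was measured in 23 libraries. Libraries of poly(A) RNA (2.4 to 147 ng, a kit that keeps strand) were sequenced as single 50 nt reads, per the labels. Per the submitters' processing notes, FastQC 0.11.5, STAR, RSEM, limma and build GRCm38 were used, and neither the annotation nor the use of strand in counting is stated in the sources used here. The authors deposited expected counts (estimated counts, 87.26% whole within 1e-06) and TPM for each library. Expected counts were rounded and tested in R 4.3.3 with edgeR 4.0.16: filterByExpr (minimum count 10), TMM scaling, 1 model of all 23 libraries, 6 contrasts, glmQLFTest, Benjamini-Hochberg adjustment over 18720 genes and a threshold of 0.05. The SE is the log2 fold change over the root of the F statistic. CPM are TMM-scaled, and the deposited TPM served only to compare levels between genes. No 2 libraries were identical (highest Pearson correlation 0.996).

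DESeq2 1.42.0, limma 3.58.1 (voom), other scalings and filters, fits within each run of library numbers and leaving out each library were alternatives. The scripts were tested on simulated data. The 35 genes and all lists were chosen with earlier results of these data known, so no test over a list was made. Library values are given for called genes and the 5 regulators, and genes of the lists next to the pathway are named only where called, up to 4 a list.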

Additional observations from a re-analysis of the deposited data

Results flagged for a closer look

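A library far from the others of its group was found in 15 of the 105 groups of values (35 genes in 3 groups of 5 to 8 libraries), where chance gives about 1 in 20. Old replicate 3 had 4 of them and young replicate 3 had 3. Old replicate 3 was highest in Pmvk (31.29 CPM, the other 4 at 9.724 to 12.46), Nsdhl (14.76 CPM, others 7.558 to 9.597) and Scd1 (2.077 CPM, others 0.6264 to 0.9949), and lowest in Insig2 (23.09 CPM, others 26.6 to 27.78). Young replicate 3, with the fewest detected genes (16399), was highest in Npc2 (1323 CPM, others 931.4 to 1094), Hsd17b7 (5.862 CPM, others 1.364 to 3.155) and Scd1 (2.503 CPM, others 0.154 to 0.9364).

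Young replicate 1 was lowest in Acaca (19.75 CPM, others 29.33 to 34.03) and highest in Acat2 (11.39 CPM, others 5.316 to 7.328). Old replicate 2 was highest in Cyp51 (19.88 CPM, others 18.38 to 18.55) and Hsd17b7 (3.578 CPM, others 1.946 to 2.216). Single libraries stood apart in Fads1 (old repopulated replicate 2, 134 CPM, others 63.72 to 85.54), Scd2 (old repopulated replicate 1, 84.89 CPM, others 121.7 to 147.5), Srebf1 (young replicate 4, 52.62 CPM, others 41.69 to 46.33) and Tm7sf2 (old replicate 5, 3.221 CPM, others 5.149 to 5.663). No gene had a called interaction of age and repopulation over all libraries.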

How the results depend on the processing

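No paired analysis was possible because each library has a number of its own in the labels, replicate numbers here only name libraries, and nothing in the labels ties a library of 1 group to one of another. Over the called genes, 507 alternative values were computed: 462 kept their direction and call, 45 lost the call and 0 reversed. Most of the 507 came from leaving out 1 of the 23 libraries. Such fits share nearly all their data with the full fit, so the 462 are no measure of robustness. Within library numbers 1 to 11 all 13 calls of old repopulated versus young were lost. Upper-quartile scaling ended the calls of Msmo1, Insig1 and Fdps in old repopulated versus young (adjusted p = 0.066, 0.0881 and 0.0566) and testing without a filter those of Insig1 and Fdps (0.0597 and 0.0513). With voom and sample weights, 9 of the 35 genes were called in old versus young, 3 in old repopulated versus old, 9 in young repopulated versus young, 20 in old repopulated versus young, 6 in old repopulated versus young repopulated and 1 for the interaction. DESeq2 called 2 in old repopulated versus old, a term for the library run 1, and a fit of only the groups compared 1 in old versus young. For these alternatives the share of all genes called is not given here, so their counts are not read as results about the 35 genes. Within library numbers 12 to 24 the 6 counts were 8, 10, 7, 22, 16 and 3 in the same order, and within 1 to 11 old repopulated versus young gave 0. Medians over the 35 genes moved in old repopulated versus old (0.33 within 12 to 24), in old repopulated versus young (0.18 within 1 to 11, 0.41 within 12 to 24), in old repopulated versus young repopulated (0.27 within 12 to 24) and for the interaction (0.15 with the run term, 0.17 within 12 to 24, -0.0127 to 0.119 leaving out 1 library). Leaving out 1 library gave 0 to 1 calls in old repopulated versus old, 0 to 3 in young repopulated versus young (0 whichever of the 3 young repopulated libraries was left out) and 9 to 17 in old repopulated versus young. The cause of these differences was not tested. The fits within a run also had fewer libraries. Elovl6, Scd1 and Fads2 are limited by low counts.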
